A study of Danio rerio with 8 samples.

Results

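The 2 genes gad1b (ENSDARG00000027419) and gad2 (ENSDARG00000015537), taken by their Ensembl IDs from the 37287 features of the table, were examined in 8 libraries of single neurons of the caudal nucleus CaD of larval zebrafish. The neurons came from Tg(gly2:GFP) fish, written Tg(Glyt2:GFP) in the study's methods, of 12 to 14 days, 1 cell per fish according to the series' design text. They were traced back from the spinal cord with a dextran dye, drawn into a glass pipette and sequenced with poly(A) RNA amplification. All 8 libraries belong to 1 group, labelled glycinergic neurons, and no second group or other cell type was analysed here. They carry the names M1, M2, M5, M6 and M9 and the names M11, M16 and M17.

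Both genes encode glutamic acid decarboxylase, the enzyme that makes the inhibitory transmitter GABA from glutamate with pyridoxal phosphate as cofactor. In mammals the product of Gad1, GAD67, is found throughout the cell and supplies most GABA, whereas the product of Gad2, GAD65, sits at synaptic vesicles. GABA and glycine are loaded into vesicles by the same carrier, the product of slc32a1, so that many hindbrain and spinal inhibitory neurons release either transmitter or both. A glycinergic neuron is marked by slc6a5, which encodes the plasma membrane glycine transporter Glyt2.

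The glycinergic label was first set against its defining markers. SLC6A5, as the name table writes it, reached an FPKM of 1.22 in M11 and between 0 and 0.371 in the other 7 libraries. FPKM is the number of fragments on a gene, scaled by gene length and by the reads counted in the library. SLC32A1 had 26.9 FPKM in M11, 8.58 in M1, 5.64 in M17 and 2.95 in M6, and at most 0.0580 in M2, M5, M9 and M16. SLC6A9, for the second glycine transporter Glyt1, which glia also use, was at an FPKM of at least 1 in 6 of 8 libraries, with 19.9 in M16 as its highest value. Of the 3 marker IDs of the label, SLC6A5, which defines it, was thus near 0 in nearly every library, whereas SLC6A9 was not. In contrast, CHAT, which encodes the acetylcholine synthesis enzyme, lay between 9.86 and 24.1 FPKM, and one of the IDs named SLC18A3, the vesicular acetylcholine transporter (ENSDARG00000006356), between 32.1 and 235. The other SLC18A3 ID (ENSDARG00000107527) had 2.64 FPKM in M6, 1.91 in M9, 1.27 in M2 and 0 in the remaining libraries. The neuronal RNA-binding gene ELAVL3 was present in all libraries, from 115 to 283 FPKM. Of the 7 pan-neuronal IDs, 3 were at an FPKM of at least 1 in each of the 7 libraries without M1, against 10.04% of all features. The cells are therefore referred to as CaD neurons below, by the place they were collected from.

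The reads counted on genes were recovered from the FPKM values and came to between 9861756 in M16 and 13761924 in M6 in 7 libraries, and to 47723986 in M1. At the detection limit of FPKM 1, M17 had the fewest features, 7224, and M6 the most, 13643. Because the reads of M1 for both genes add up from other libraries, as shown further on, detection counts, medians, the comparison of the genes and correlations are given with and without M1. Shares of features with the same pattern and the most similar features are given without M1 only.

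gad1b, with a gene length of 2892 bases behind its FPKM, was unevenly distributed among the cells. Its FPKM was 54.2 in M11, 17.3 in M1, 13.2 in M16, 11.4 in M6, 1.54 in M2, 0.0686 in M9, 0.0606 in M17 and 0 in M5. These values rested on 2003 reads in M11, 2383 in M1, 377 in M16, 453 in M6 and 57 in M2, but on 2 reads each in M9 and M17. In M5 no read was counted, which allows up to 0.0992 FPKM at 3 reads. M11 was 4.10 times as high as the next of the 7 libraries without M1. Among features detected at this limit, gad1b stood above 90.8% in M11, 66.8% in M16, 68.8% in M6 and 9.99% in M2. The 8 libraries thus held gad1b at a high level in 1, at an intermediate level in 3, near the detection limit in 1 and at a few reads or none in 3. M1 was 1 of the 3 at an intermediate level, and its reads add up from other libraries, as shown further on.

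gad2, with a gene length of 3460 bases, showed a similar spread. Its FPKM was 56.7 in M11, 16.8 in M1, 12.9 in M6, 6.92 in M16, 0.734 in M17, 0.0860 in M9, 0.0677 in M2 and 0.0276 in M5. The reads behind these values were 2507 in M11, 2774 in M1, 613 in M6, 236 in M16 and 29 in M17, and 3, 3 and 1 in M9, M2 and M5. M11 was again the highest library, 4.402 times as high as M6. gad2 stood above 91.2% of the detected features in M11, 71.3% in M6 and 47.8% in M16. The same libraries were high and the same were low for both genes, apart from M2 and M17.

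**Figure D1:**
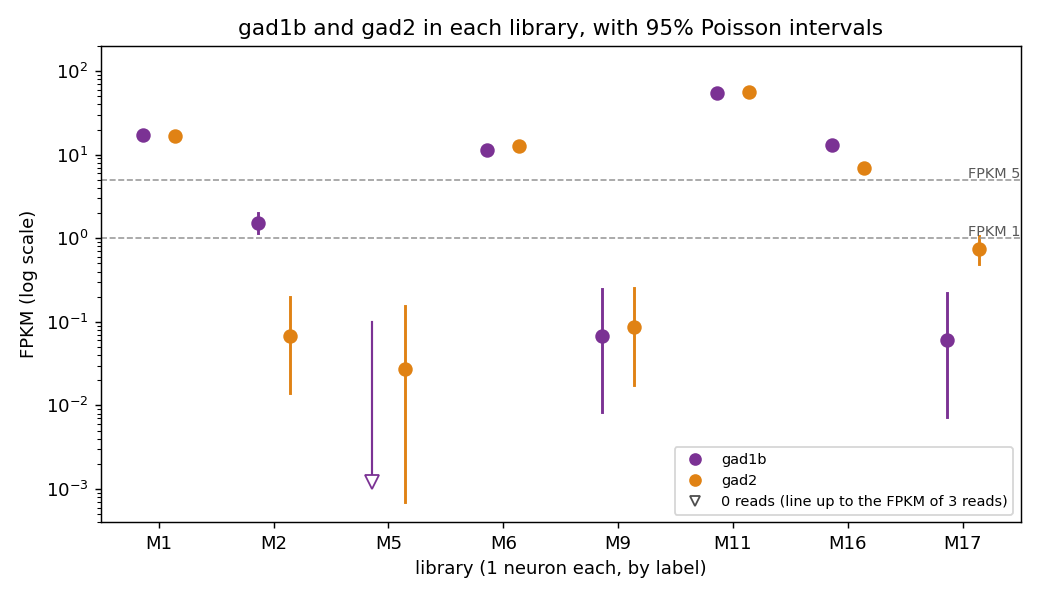
FPKM of gad1b and gad2 (vertical axis, log scale) in each of the 8 libraries, with lines for the exact 95% Poisson interval of the recovered reads and dashed lines at FPKM 1 and 5. Both genes lie above FPKM 5 in M1, M6, M11 and M16, and all other points lie below 1 apart from gad1b in M2 at 1.54.

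At an FPKM of at least 1, gad1b was detected in 5 of 8 libraries and gad2 in 4 of 8, or in 4 of 7 and 3 of 7 without M1. At an FPKM of at least 5, both genes were detected in 4 of 8 libraries and in 3 of 7 without M1. Both genes were in the same cells at the higher limit, namely M6, M11 and M16, and in M1. At the lower limit these libraries again held both genes, M2 held gad1b alone, and M5, M9 and M17 held neither. For comparison, 2383 features were detected at FPKM 1 in exactly 3 of the 7 libraries, and for 208 of them (8.73%) these were M6, M11 and M16. At an FPKM of at least 5, the same was true of 134 of 1330 features (10.1%). Across 7 libraries, the levels of the genes on the log2(FPKM + 1) scale had a Pearson correlation of 0.958 and a Spearman correlation of 0.821, without M11 they had 0.917 and 0.714 over 6, and with M1 0.963 and 0.881 over 8. These are descriptions over single cells, each 1 library with its own depth. The feature with the highest median FPKM took 56.8% of the counted reads in M17 and 21.8% in M6. Such a share lowers the FPKM of all other features, and by unequal amounts between cells. The detection counts were not repeated without this feature.

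In M2, M16 and M17 the intervals of the genes did not overlap, although only M2 had unequal detection at FPKM 1. In M16 the interval was 11.9 to 14.6 FPKM for gad1b and 6.06 to 7.86 for gad2. In M2 gad1b had 57 reads and 1.54 FPKM (exact 95% Poisson interval 1.17 to 1.99), while gad2 had 3 reads and 0.0677 FPKM (0.0140 to 0.198). The opposite held in M17, where gad2 had 29 reads and 0.734 FPKM (0.492 to 1.05) and gad1b had 2 reads and 0.0606 FPKM (0.00733 to 0.219). The interval of gad2 in M17 includes the detection limit of 1. All intervals of this kind are limited to counting error, because molecules were amplified before they were read.

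M1 held nearly the same number of reads of each gene as M11, M16 and M17 together. For gad1b, M1 had 2383 reads and the 3 libraries 2003, 377 and 2, in sum 2382. For gad2, M1 had 2774 reads and the 3 libraries 2507, 236 and 29, in sum 2772. M1 thus exceeded the sums by 1 read and 2 reads. For SLC32A1, M1 equalled the sum exactly, at 1431 reads, whereas it had 952 reads more for ABAT, 557 more for SLC6A9 and 280 more for SLC6A11. Over all features M1 had 47723986 counted reads and the 3 libraries 34067433, so that M1 held 13656553 reads beyond their sum. For gad1b and gad2, however, the reads of M1 were nearly those of M11, M16 and M17 added up, and M1 was not counted as a further cell with both genes. Leaving M1 out took the median FPKM from 6.46 to 1.54 for gad1b and from 3.83 to 0.734 for gad2. The mean was 12.2 ± 18.3 for gad1b and 11.8 ± 19.3 for gad2 (SD, n = 8), and 11.5 ± 19.6 and 11.1 ± 20.7 without M1 (SD, n = 7).

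Since FPKM is scaled by gene length, the levels of both genes could be compared within each library. The difference of gad1b minus gad2 on the log2(FPKM + 1) scale was -0.16 in M6, -0.06 in M11, 0.84 in M16, 1.25 in M2, -0.71 in M17, -0.04 in M5 and -0.02 in M9. gad1b was the higher gene in 2 of 7 libraries and gad2 in 5, but among these M5 and M9 had 3 reads or fewer of either gene. The mean difference was 0.16 ± 0.66 (SD, n = 7; exact two-sided sign-flip permutation test, p = 0.625), with 0.0156 as the smallest p that 7 libraries allow. With M1, where the difference was 0.04, the mean was 0.14 ± 0.62 (SD, n = 8; exact permutation test, p = 0.602). That run takes M1 as a further independent library, which its reads of both genes do not bear out. The mean difference was thus not larger than the spread between the cells, and without M2 the mean was -0.03. The single differences in M2, M16 and M17 were larger in size than the SD of 0.66. In M6, M11 and M16, the libraries with both genes detected, the mean was 0.21 ± 0.56 (SD, n = 3), with no test. This does not show that the levels are equal.

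Among the cells with both genes, the ratio of gad1b to gad2 was not the same. It was 0.956 in M11 (exact 95% binomial interval of the reads 0.901 to 1.01), 0.884 in M6 (0.781 to 0.9999) and 1.91 in M16 (1.62 to 2.26). The interval of M11 includes 1. The interval of M16 does not overlap those of M6 and M11. With 1 library per cell, this difference has no replicate check.

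**Figure D2:**
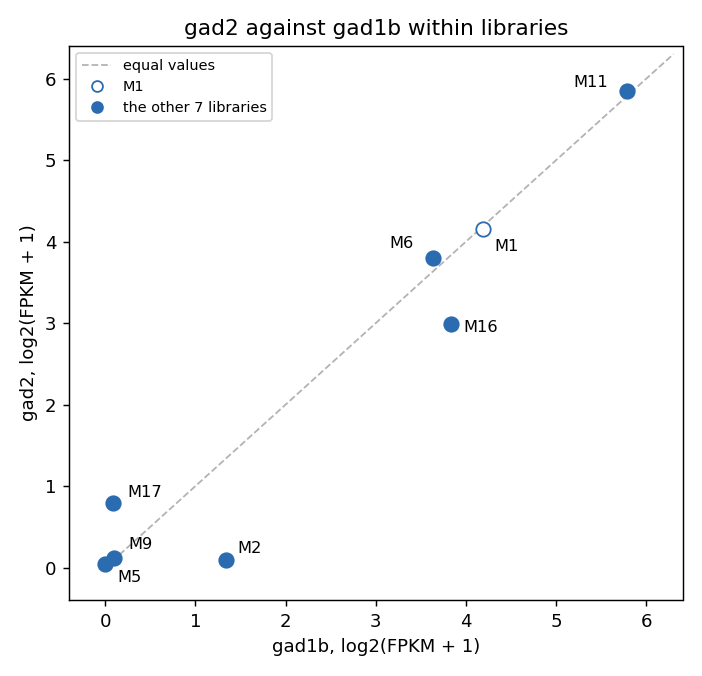
Level of gad2 (vertical axis) against gad1b (horizontal axis), both as log2(FPKM + 1), with 1 point per library, M1 as an open circle and equal values as a dashed line. M6, M11 and M1 lie close to the line, M16 and M2 lie to its gad1b side, M17 lies to its gad2 side, and M5 and M9 lie near 0 for both genes.

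Other decarboxylase genes were low. A second ID that the name table calls GAD1 (ENSDARG00000093411) had 2.81 FPKM in M11, 0.966 in M5, 0.964 in M1, 0.938 in M6, 0.0557 in M9 and 0 in M2, M16 and M17. In M5, where gad1b had no read, it had 18 reads. M16 had 377 reads of gad1b and 0 of this paralogue. gad3 had 2.89 FPKM in M9 and 0 in all other libraries. Over the 4 decarboxylase IDs, M5 and M17 had none at an FPKM of at least 1, M2 had gad1b alone and M9 had gad3 alone.

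The remaining genes of GABA handling were not confined to the libraries with gad1b and gad2. Of the 12 IDs for GABA synthesis, breakdown, uptake and vesicle loading, gad1b and gad2 included, 10 were detected at an FPKM of at least 1 in M11, 9 in M6, 9 in M1, 5 in M9, 5 in M16, and 4 each in M2, M5 and M17. The share of all 37287 features detected was also high in M6 (36.6%), M11 (35.8%) and M1 (34.6%), and was 31.2% in M5, 29.4% in M9, 26.2% in M16, 25.8% in M2 and 19.4% in M17. Without gad1b and gad2, the summed FPKM of the other 10 IDs had a Spearman correlation of 0.679 with that of gad1b and gad2 over 7 libraries, 0.486 without M11 and 0.762 with M1. ABAT, which encodes the GABA transaminase that breaks GABA down, was detected in all 8 libraries, from 4.84 FPKM in M17 to 52.0 in M9. Its highest value thus lay in a cell with 2 reads of gad1b and 3 of gad2. ALDH5A1, for the next step of the breakdown, lay between 0.417 FPKM in M2 and 8.05 in M6. Only slc6a11a was below an FPKM of 1 in all 8 libraries.

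The gene of vesicle loading was not detected in all cells with gad1b and gad2. SLC32A1, the carrier that fills vesicles with GABA or glycine, had 26.9 FPKM in M11 and 2.95 in M6, but 0.0580 (2 reads) in M16, which had 377 reads of gad1b. The reverse was seen in M17, where SLC32A1 had 5.64 FPKM and 225 reads beside 2 reads of gad1b and 29 of gad2. Synthesis genes and the vesicle carrier were therefore at an FPKM of at least 1 together in M6 and M11, and in M1. SLC6A9, for the glycine transporter Glyt1, was spread differently, with 19.9 FPKM in M16, 17.3 in M11, 16.6 in M6, 7.42 in M5, 1.44 in M9, 0.385 in M2 and 0.108 in M17.

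**Figure D3:**
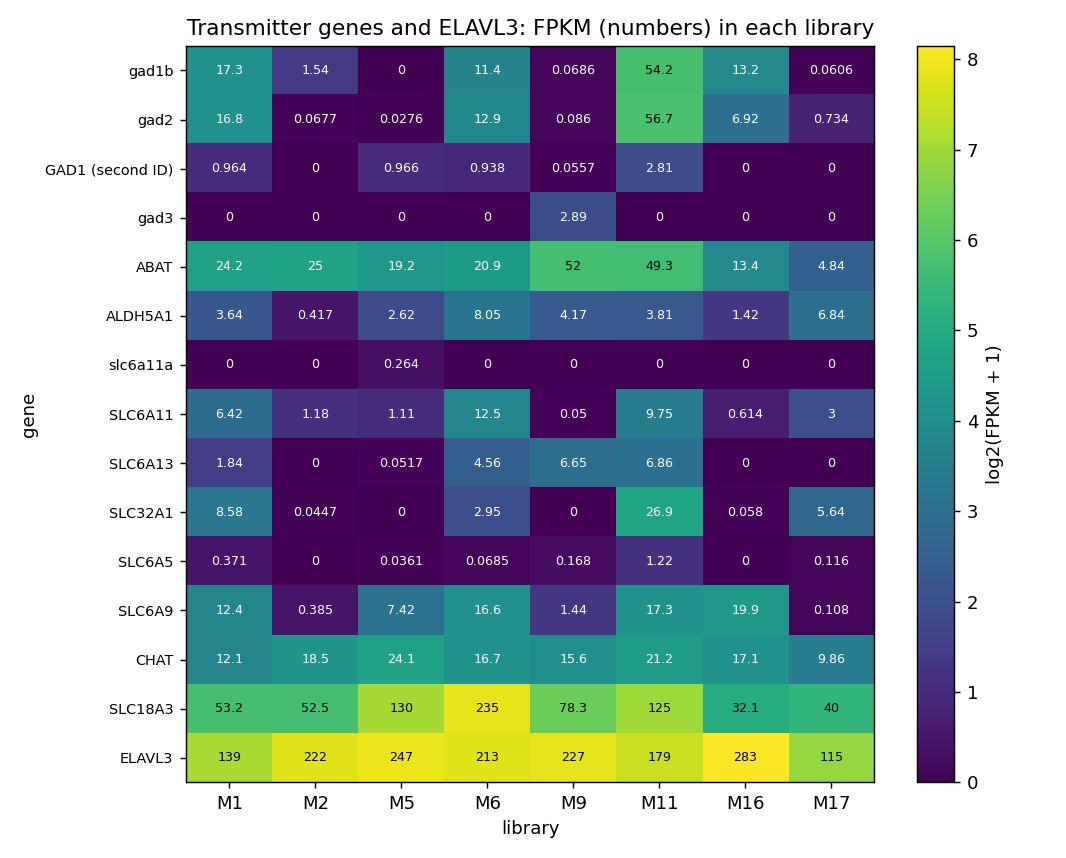
FPKM (printed numbers) and log2(FPKM + 1) (colour) of gad1b, gad2 and other genes of GABA and glycine handling, with CHAT, SLC18A3 and ELAVL3, in the 8 libraries (columns). gad1b and gad2 are high in M1, M6, M11 and M16, SLC6A5 is at most 1.22 throughout, and CHAT, SLC18A3 and ELAVL3 are present in every column. SLC18A3 is shown for ENSDARG00000006356 alone, and the other ID of that name is not drawn.

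Most of the genes listed for the supply of glutamate or pyridoxal phosphate to the decarboxylases were present in most libraries. The list also holds the IDs named GLUL, for glutamine synthetase, which uses glutamate to make glutamine. Of 10 IDs, 5 were at an FPKM of at least 1 in each of the 7 libraries, among them glud1b, which encodes a glutamate dehydrogenase, from 4.41 in M17 to 69.6 in M6. Of all features, 10.04% were detected in each of the 7 libraries and 42.5% in none. The sum of this list, GLUL included, had a Spearman correlation of 0.857 with that of gad1b and gad2, 0.771 without M11 and 0.833 with M1. The glutamine synthetase GLUL (ENSDARG00000099776), which is also on the list of glial markers below, had 1190 FPKM in M11, 897 in M6, 555 in M16, 183 in M2, 45.0 in M17, 29.8 in M5 and 4.29 in M9. This ID made up most of the sum of the list in M11 (1433 FPKM), M6 (1099) and M16 (686). The correlation was not computed without this ID, and so is not one of supply genes alone. For the genes on the receiving side of inhibition the Spearman correlation with the gad sums was 0.214, with 0.0857 without M11 and 0.0238 with M1. Of 28 IDs for GABA and glycine receptors and their anchor, 9 were detected in each of the 7 libraries and 6 in none of them. GLRA1, the main adult glycine receptor subunit, lay between 89.5 FPKM in M11 and 309 in M9, and GABRA5, a GABA-A receptor subunit, between 36.1 in M17 and 250 in M6. The neuronal chloride exporter slc12a5b lay between 5.80 FPKM in M1 and 23.5 in M9.

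Among markers of other cell types, those of radial glia and astroglia varied together with gad1b and gad2, though not these alone. The 10 IDs for radial glia and astroglia summed to 11536 FPKM in M11, 3176 in M6, 1277 in M16, 667 in M2, 475 in M5, 214 in M9 and 209 in M17, and 9, 8, 7, 6, 6, 4 and 3 of them were detected at an FPKM of at least 1. The number of all features detected was likewise high in M11 and M6 and lowest in M17, as given above. The 4 libraries with the highest sums of gad1b and gad2 thus had the highest sums of these markers, in the same order. The Spearman correlation of the sums was 0.857 over 7 libraries, 0.771 without M11 and 0.905 with M1, as a description. One ID named FABP7, a fatty acid-binding protein of radial glia (ENSDARG00000007697), made up most of the sum in M11, at 8963 FPKM, and in M6, at 1975. Without it the other 9 IDs summed to 2572 FPKM in M11, 1201 in M6, 709 in M16, 379 in M2, 123 in M5, 120 in M9 and 72.9 in M17. Their correlation was the same over 7 libraries, 0.857, and was 0.881 with M1. GFAP, a defining marker of this list, was highest in the same 4 libraries, but in another order. It had 24.2 FPKM in M11, 12.5 in M2, 11.5 in M16, 9.79 in M6, 5.46 in M9, 4.07 in M5 and 0.859 in M17. One ID named SLC1A2 was at 0 in all libraries. The other (ENSDARG00000102453) had 133 FPKM in M6, 129 in M11, 33.3 in M16, 30.4 in M2, 7.05 in M5, 0.546 in M17 and 0.137 in M9. The part of these markers in the levels of gad1b and gad2 was not tested. The myelinating glia list, led by mbpa for myelin basic protein, was ordered differently. It summed to 36572 FPKM in M2, 21253 in M11, 17190 in M17, 12767 in M16, 4300 in M9, 922 in M6 and 502 in M5, with a Spearman correlation of 0.429 with the gad sums, 0.257 without M11 and 0.571 with M1. The cholinergic list had 0.0714 over 7 libraries (-0.0238 with M1) and the monoaminergic list 0.357 (0.333 with M1). The glutamatergic list, mostly near 0 in FPKM, had 0.821 (0.714 without M11 and 0.881 with M1). The list of V0d and related transcription factors had 0.75 (0.69 with M1). The microglia list, whose sums were mostly apoeb, had 0.679 (0.643 with M1). The GABAergic marker list, with gad1b and gad2 left out, had the highest value of all lists, 0.929 (0.886 without M11 and 0.929 with M1). Such values were thus not particular to radial glia and astroglia. M6 had both genes at over 11 FPKM with a low sum of myelin markers, and M2 had the highest sum with 3 reads of gad2.

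**Figure D4:**
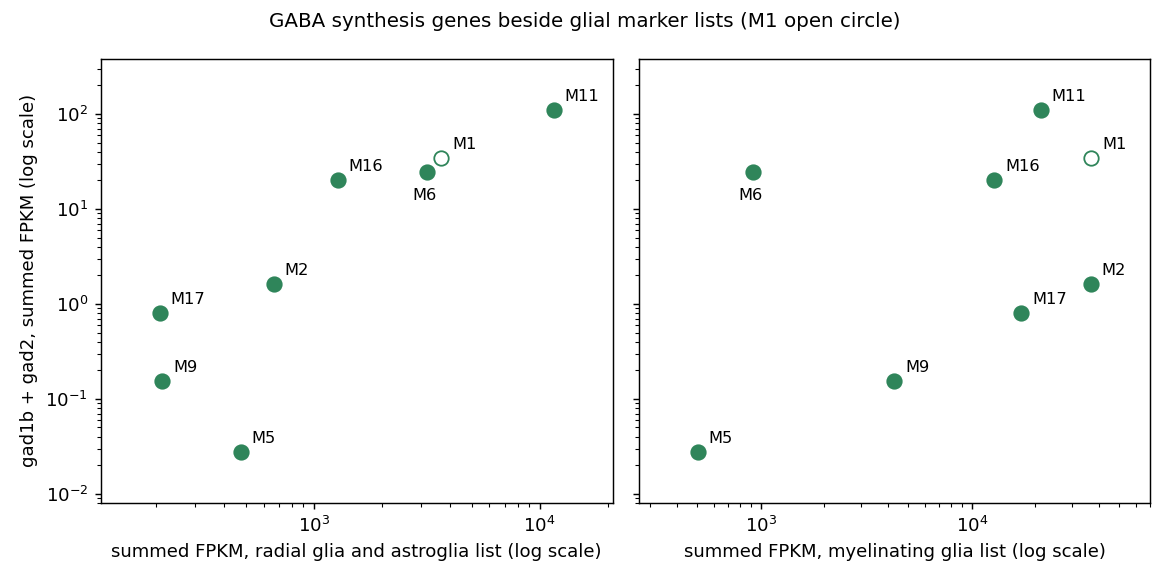
Summed FPKM of gad1b and gad2 (vertical axis, log scale) against the summed FPKM of the radial glia and astroglia list (left) and of the myelinating glia list (right, log scales), with 1 point per library and M1 as an open circle. On the left M11, M6, M16 and M2 lie highest of the 7 libraries without M1 on both axes, and on the right M6 and M2 depart from such an order.

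Among neuronal markers, the glutamatergic list was mostly near 0, but one ID named SLC17A6, a vesicular glutamate transporter (ENSDARG00000041150), had 13.98 FPKM in M11, the library with the highest gad1b and gad2, and at most 0.422 in the other libraries without M1. The other (ENSDARG00000001127) had 1.81 FPKM in M6 and 0 elsewhere. At an FPKM of at least 1, M11 and M6 therefore each held genes of GABA synthesis, vesicular glutamate transport and acetylcholine synthesis. So did M1, but its 654 reads of ENSDARG00000041150 were nearly the 653 of M11, M16 and M17 added up. M1 is thus not a further case. CHAT, for acetylcholine synthesis, was at this level in every library. Of the 2383 features detected at FPKM 1 in exactly 3 of the 7 libraries, 208 (8.73%) were so in M6, M11 and M16, as given above. Of the 113 IDs of all lists other than gad1b and gad2, 8 were at an FPKM of at least 1 in exactly 3 of 7 libraries, and 1 of these was so in M6, M11 and M16. This was an ID named SNAP25 (ENSDARG00000058117), for a protein of synaptic vesicle release, with 91.2 FPKM in M11, 77.5 in M6 and 30.0 in M16 and at most 0.199 in M2, M5, M9 and M17. The other SNAP25 ID (ENSDARG00000020609) was between 405 and 1329 FPKM in all libraries. Of the 10 IDs for V0d and related transcription factors, 2 were at an FPKM of at least 1 in each of the 7 libraries and 5 in none. For all features these shares were 10.04% and 42.5%. The 2 were lhx1a, from 3.07 FPKM in M16 to 25.6 in M11, and lhx5, from 1.67 in M17 to 51.0 in M16. The IDs named DBX1 reached 1.76 at most, in M6, and those named EVX1 or EVX2 were at 0 in all libraries. One ID named PAX2 (ENSDARG00000028148) had 19.6 FPKM in M11, 1.43 in M6 and at most 0.136 in the other libraries without M1. The other (ENSDARG00000032578) was highest in M2, at 9.66. The microglia list summed to 232 FPKM in M16, 105 in M6, 61.9 in M11 and 20.5 or less in M2, M5, M9 and M17. The endothelial and blood list did not exceed a sum of 0.129 FPKM.

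Genes that overlap gad1b or gad2 could share reads with them. In the RefSeq annotation of the assembly GRCz12tu, which need not be that of the files, gad2 lies within the span of gpr158a, and a long non-coding RNA gene overlaps gad1b. The IDs named GPR158 had at most 103 reads in any of the 8 libraries, in M6, and 35 and 5 in M11 beside 2507 of gad2. The strand of the counted reads is not given.

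For each gene, the features with the most similar pattern were named by their Pearson correlation on log2(FPKM + 1) over the 7 libraries. Candidates were the features detected at FPKM 1 in 4 or more of these. For gad1b, out of 9783 features, these were Novel02343, a feature without an Ensembl ID, with r = 0.990, and rps20, a ribosomal protein gene, with r = 0.989. For gad2, out of 9784, they were zgc:122979 with r = 0.991 and KDM1A, a histone demethylase gene, with r = 0.980. gad1b ranked 8 in the list for gad2, while gad2 itself was detected in 3 libraries and was not a candidate for gad1b. rps20 had 2027 FPKM in M11, 1375 in M6, 1344 in M16, 596 in M2, 470 in M5, 396 in M9 and 389 in M17. It thus shared the order of the 3 highest libraries with gad2, but was far above 0 in every one.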

How the data were processed

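RNA of single CaD neurons was amplified with SMART-Seq v4, and libraries were read as pairs of 150 bp. The authors assigned reads to genes by HTSeq (0.6.0 in the methods, 0.9.1 in the submitters' processing notes, which also name HISAT2 2.0.4) and deposited FPKM, from gene length and read count. The genome build and annotation are not given in the sources used here. All 8 columns were used.

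Library totals, gene lengths and whole reads were recovered from ratios of FPKM between libraries, and the procedure was tested on simulated data. Recovered reads added up to 99.87% to 99.95% of each total. Because the deepest library, M1, resembles a sum of others, the main test was run without it, and the run with M1 was an alternative. Detection meant an FPKM of at least 1, or 5 as an alternative. gad1b and gad2 were compared within libraries on log2(FPKM + 1) by an exact sign-flip permutation test over 128 sign changes. Other genes were matched by symbol through a name table that held 29178 of the 31901 Ensembl IDs; 3 of 108 listed symbols had no match, and paralogues often shared a symbol. Some genes of the lists are not reported here by name. The genes to be named were gad1b, gad2, the 2 features most like each of them, and members of the lists. The members, lists and the test were chosen with earlier results of these data known. Alternatives were other detection limits, rescaling to a common total, other pseudocounts and sets of libraries. Nothing says that cells were replicated technically, so spreads are between cells. Python 3.11.15, numpy 2.4.6, pandas 2.3.3, scipy 1.17.1 and matplotlib 3.10.9 were used.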

Additional observations from a re-analysis of the deposited data

Results flagged for a closer look

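M11 stood far from the other libraries in both genes. Over 8 libraries, the distance from M11 to its nearest neighbour was 0.681 of the full range for gad1b FPKM and 0.704 for gad2, above Dixon's 95% critical value. Without M1 these distances were 0.756 and 0.773 and again above it. On the log2(FPKM + 1) scale neither gene had such a library. The counted reads of M1 were also far from the others, at 0.897 of the range. Of 12 measures examined, 5 stood out in this way, where chance gives about 1 in 20 for normally distributed values. The measures are not independent of each other, and those of gad1b and gad2 that stood out were all FPKM without logarithm. M11 was not the deepest library, with 12786152 counted reads, but had 13335 features at an FPKM of at least 1.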

How the results depend on the processing

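Of 28 alternatives to the detection counts and to the comparison of the genes, 24 kept the value within 1.5 times the main count or the difference on the same side of the test and in the same direction, or, for the 3 libraries with both genes and no test, within 1 SD. The median FPKM fell without M1 from 6.46 to 1.54 for gad1b and from 3.83 to 0.734 for gad2. Over 8 libraries, the medians were 8.30 and 6.78 with the highest feature left out and the rest rescaled to a common total. The SDs of 18.3 and 19.3 exceed these medians, so that they set no limit to a fall. Counting any FPKM above 0 as detection gave gad2 in 8 libraries and both genes in 7, where 4 were found at FPKM 1, since 1 read then suffices. gad1b was detected in 3 libraries at FPKM 5 without M1, against 5 at FPKM 1 with it, the alternative being added after seeing the data. Leaving out 1 further library at a time gave mean differences of gad1b minus gad2 from -0.026 (without M2) to 0.30 (without M17), with exact permutation p from 0.5 to 1. An FPKM of 1 stands for 28.5 reads of gad1b in M16 and 138 in M1, so that low levels are read less surely in the shallower libraries.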
